A study of Mus musculus with 3 samples.

Results

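Germ cells of testes heterozygous for a Cdk2 allele were examined in single-cell RNA data of neonatal mouse testis. They were chosen by their own RNA counts: a Cdk2-HET cell was taken when at least 2 of the 3 genes Ddx4, Dazl and Mael had 1 or more unique molecular identifiers (UMIs, each 1 counted RNA molecule) and at least 500 genes were detected, with no limit on mitochondrial RNA. By this rule 69 of the 4958 cells of that library, and of the 14422 cells of the series, are Cdk2-HET germ cells. The same rule gave 126 Cdk2-WT and 116 Cdk2-Y15S cells. Cdk2-WT is Cdk2+/+, Cdk2-HET is Cdk2+/YS and Cdk2-Y15S is Cdk2YS/YS, where YS is a Cdk2 allele that turns the tyrosine at residue 15 into serine. All were untreated males from heterozygous breeding on a background that mixes B6(Cg)-Tyrc-2J/J with FVB/NJ, labelled postnatal day 3 and dissected at 3.5 days. Each genotype is 1 library of whole dissociated testis, and the labels do not say how many animals went into it. Library, litter, genetic background and genotype therefore cannot be told apart, and no comparison here has a replicate check or a p-value. All intervals are at 95% and cover counting error only: exact Poisson for levels, exact binomial (Clopper-Pearson) for shares and exact conditional binomial for ratios.

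CDK2 is a cyclin-dependent kinase that acts with cyclins E and A in DNA replication and is also needed in meiosis. Its tyrosine 15 is phosphorylated by WEE1, which holds the kinase back, and is freed by the CDC25 phosphatases. In the neonatal testis the male germ cells, called gonocytes or prospermatogonia, leave mitotic arrest, remake their DNA methylation and small-RNA silencing, and become either spermatogonial stem cells or differentiating spermatogonia.

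The codon at issue lies in exon 1 of Cdk2, on the minus strand of chromosome 10 (GRCm38, gene Cdk2, ENSMUSG00000025358, at chr10:128697939-128705031). The first 20 codons of transcript Cdk2-201 (GENCODE M21), at chr10:128704768-128704827, are shown because the allele changes 1 of them. Capitals mark codon 15, a tyrosine codon in this reference, at 128704783 to 128704785.
Cdk2 codons 1 to 20: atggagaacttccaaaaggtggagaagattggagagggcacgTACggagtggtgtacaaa
The libraries were made with 3-prime chemistry, so the UMIs of Cdk2 come from the far end of the transcript and check nothing about the genotype labels. In germ cells Cdk2 was at 73.7 CPM (UMIs per 1000000 summed UMIs) in Cdk2-WT (60.9 to 88.5), 87.2 in Cdk2-HET (68.8 to 109) and 94.3 in Cdk2-Y15S (80.4 to 110). The log2 ratio of Cdk2-HET was 0.24 over Cdk2-WT (-0.19 to 0.67) and -0.11 over Cdk2-Y15S (-0.52 to 0.29), so the Cdk2 RNA level of the heterozygote did not differ from either beyond counting error.

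Germ cells were the scarcest in the heterozygote. They made up 1.39% (1.09 to 1.76) of the 4953 Cdk2-HET cells with at least 500 genes, against 2.49% (2.08 to 2.96) of 5054 in Cdk2-WT and 2.64% (2.18 to 3.15) of 4400 in Cdk2-Y15S. The Cdk2-HET interval lies below both others, which overlap each other. The share depends on cells lost in dissociation and capture as much as on cells in the testis, and the lower share of Cdk2-HET was not tested against either. With mitochondrial UMIs held to 10%, the shares were 0.807%, 1.20% and 1.51%, with Cdk2-HET again the lowest. These rest on 39, 58 and 64 cells and are given without intervals. They therefore show the order only, not a separation beyond counting error.

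The 69 Cdk2-HET germ cells held 883235 UMIs, with a median of 12456 per cell (2300 to 31402) and 4371 genes (1294 to 6797). Summed UMIs were 1559909 in Cdk2-WT and 1739730 in Cdk2-Y15S, so at an equal level Cdk2-HET is the least precise of the 3. The median mitochondrial share was 9.24% in Cdk2-HET against 10.8% for Cdk2-WT and 9.53% for Cdk2-Y15S; 30 Cdk2-HET cells lay above 10%. A doublet caller (Scrublet) marked 4 of the 69 cells, which were kept. Cdk2-HET shares 28 barcode sequences with Cdk2-WT and 32 with Cdk2-Y15S; 1 Cdk2-HET germ cell has such a barcode, and none of the shared barcodes is a germ cell in both libraries.

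The 3 genes of the rule are given only as a description. Ddx4, an RNA helicase of germ cells, was at 198 CPM in Cdk2-HET germ cells, 221 in Cdk2-WT and 155 in Cdk2-Y15S. Dazl, an RNA-binding protein needed for germ cell development, was at 874, 862 and 780 CPM in the same order. Mael, a transposon-silencing factor, was at 670, 673 and 494. In all other Cdk2-HET cells the 3 genes were at 0.353, 1.45 and 0.450 CPM. All 3 were detected in 59 of the 69 cells and 2 of them in 10. Just outside the rule lay 59 Cdk2-HET cells with 1 marker only, most with a single UMI of it (median 1, highest 5).

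Germ cell markers that the rule did not use set these groups apart. A list of 20 (such as Tex101, Sall4, Sohlh1, Gtsf1 and Taf7l) summed to 2629 CPM in the Cdk2-HET cells with 3 rule genes, 1627 in those with 2 and 147 in those with 1. In Cdk2-HET the list was at 2544 CPM over the 69 cells, from 347 to 5657 in single cells, and at 50.4 CPM in all other cells of the library, with none of the 20 at 0. The wild type was at 2649 CPM and Cdk2-Y15S at 2422. Genes outside the rule thus place these cells with germ cells, as the label does. In the other libraries the authors' deposited germ table holds 69 Cdk2-WT and 72 Cdk2-Y15S cells; each of them meets the rule, which adds 57 and 44 cells. That table leaves out Cdk2-HET.

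The deposited clusters allow a cell-by-cell placement of the heterozygote. The authors put their 141 germ cells into 5 clusters, A to E, and each Cdk2-HET cell was given the cluster whose summed profile over 1562 germ-enriched genes best explained its UMIs (multinomial likelihood). Of the 69 Cdk2-HET cells, 35 were nearest A (50.7%, 38.4 to 63.0), 31 nearest B (44.9%, 32.9 to 57.4), 1 nearest C, 2 nearest D and none nearest E. Cdk2-WT cells fell the same way, with 59 of 126 nearest A (46.8%, 37.9 to 55.9), 57 nearest B (45.2%, 36.4 to 54.3), 2 nearest C, 8 nearest D and none nearest E. Cdk2-Y15S cells did not, with none of 116 nearest A, 10 nearest B, 2 nearest C, 65 nearest D and 39 nearest E. Clusters D and E together held 2.90% of Cdk2-HET cells (0.353 to 10.1), 6.35% of Cdk2-WT (2.78 to 12.1) and 89.7% of Cdk2-Y15S (82.6 to 94.5). A count of 0 among 69 cells allows a share of cluster E of up to 5.21%.

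**Figure D1:**
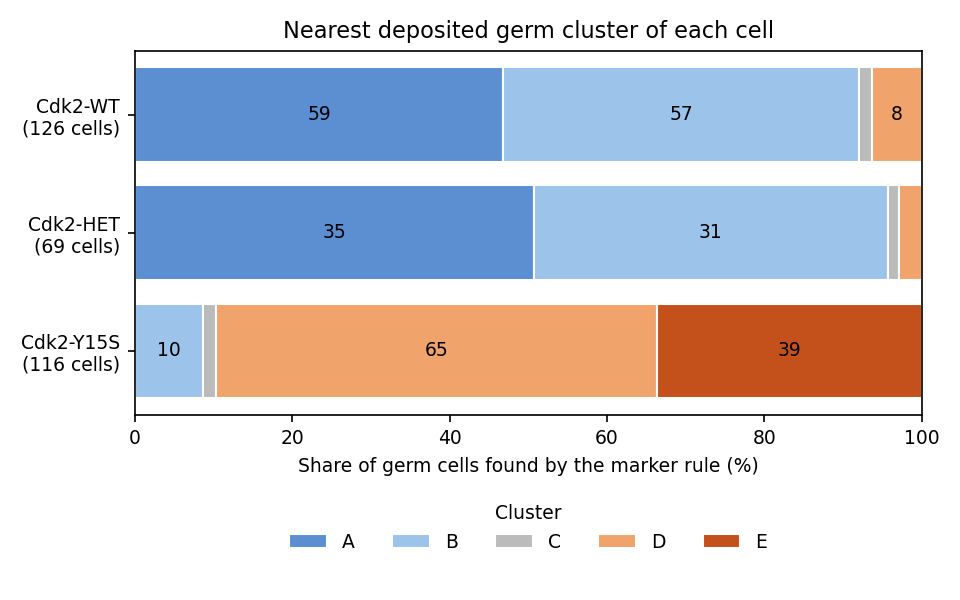
Share of the germ cells of each library (x axis, %) by the deposited cluster whose profile is nearest, with the number of cells written in the larger segments. Cdk2-HET and Cdk2-WT are split almost evenly between A and B, while Cdk2-Y15S lies mainly in D and E.

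The placement was checked on the deposited cells, each left out of its own cluster's profile. It returned the authors' cluster for 100 of 141: 30 of 36 in A, 31 of 34 in B, 27 of 37 in D and 12 of 21 in E, but 0 of 13 in C. No cell can therefore be called C or not C from it. Across libraries it placed 1 of 69 deposited Cdk2-WT cells in D or E and 0 of 72 deposited Cdk2-Y15S cells in A. Of the 57 Cdk2-WT cells outside the deposited table, 7 were placed in D or E (12.3%, 5.08 to 23.7). None of the 44 such Cdk2-Y15S cells was placed in A. All Cdk2-HET cells are outside that table, so the check on deposited cells need not hold for them. All 36 deposited cells of A and 28 of the 34 of B are Cdk2-WT, and all of D and E are Cdk2-Y15S, so a likeness of libraries and a likeness of cell states cannot be told apart here.

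The Cdk2-HET cells nearest A and nearest B differed in genes of cell division. None of the 24 genes of the G2 and M phase list was among the 1562 used for the placement. However, 6 genes of the S phase list were, so the placement was not independent of the cell cycle. The G2 and M phase list summed to 1276 CPM (1163 to 1398) in the 35 Cdk2-HET cells nearest A and 2976 (2825 to 3133) in the 31 nearest B. Per cell the medians were 999 CPM (175 to 7725) and 3177 (430 to 5624), so the groups overlap but their centres are apart. Mki67, a protein of dividing cells, was at 46.7 and 123 CPM, and Top2a, which untangles DNA before division, at 82.3 and 246. Cdk2-WT cells showed the same split, at 986 CPM nearest A and 3143 nearest B. Cells nearest B were also deeper (median 16083 UMIs against 10685) and had more mitochondrial RNA (11.0% against 7.53%), and the part of either in this difference was not tested.

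Genes of silencing and the early germ cell gene Dppa4 were higher nearest A and Lin28a was higher nearest B, but related genes did not all follow. The list for the piRNA pathway and de novo methylation, by which gonocytes silence transposons, was at 1872 CPM (1734 to 2018) in Cdk2-HET cells nearest A and 1431 (1326 to 1541) nearest B. Dppa4, a chromatin factor of early germ cells and embryos, was at 192 CPM (150 to 243) and 80.0 (56.9 to 109). Lin28a, an RNA-binding protein of undifferentiated spermatogonia, had 4 UMIs in cells nearest A and 40 in cells nearest B, or 11.0 CPM (2.99 to 28.1) and 82.1 (58.7 to 112). In Cdk2-WT the Lin28a levels were 25.4 and 35.2 CPM, with intervals that overlap. In Cdk2-HET the pluripotency and primordial germ cell list was at 914 CPM nearest A and 731 nearest B. Sox2, a member of it, ran the other way, at 30.2 and 47.2. The stem cell genes Ret (200 and 129) and Gfra1 (110 and 78.0) ran against Lin28a. The undifferentiated spermatogonia list was at 1446 and 1562. Intervals overlap for these 3 genes and for the undifferentiated list. Dppa4, Lin28a, Sox2, Ret, Gfra1 and 15 piRNA pathway genes are among those that placed the cells, so these differences are descriptions. Spocd1, which directs methylation to young transposons, was not, and had 8 UMIs in cells nearest A and 3 in cells nearest B (22.0 and 6.16 CPM, with intervals that overlap).

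**Figure D2:**
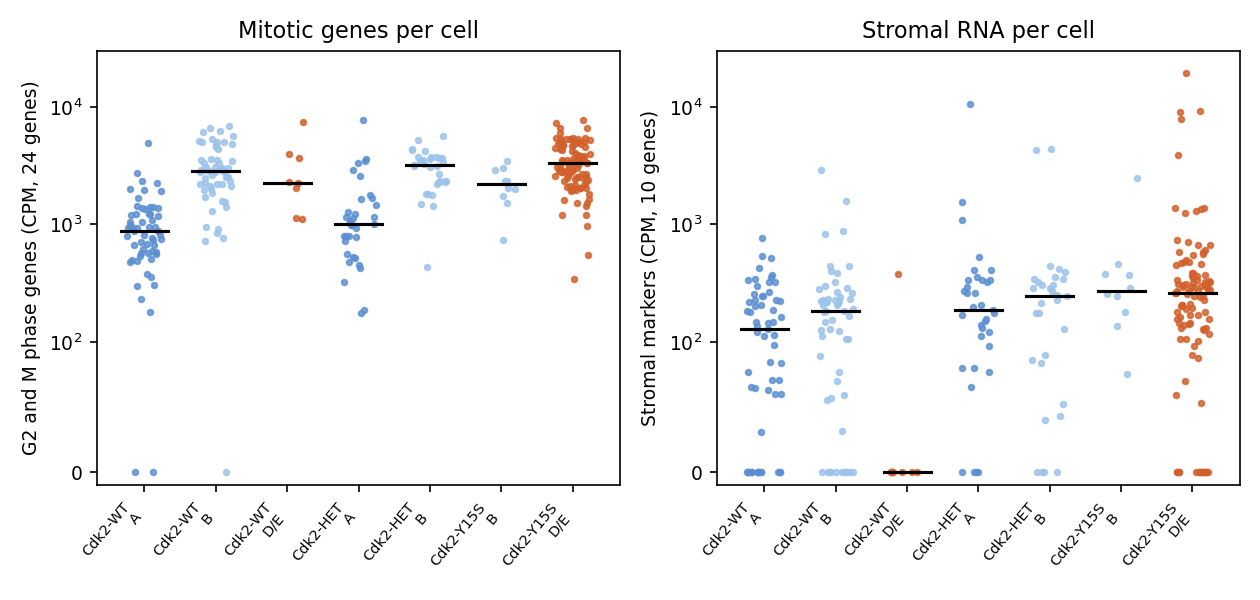
Summed level of 24 G2 and M phase genes (left) and of 10 stromal marker genes (right) in each germ cell, in CPM on a scale that is linear near 0 and logarithmic above, by library and nearest cluster. Bars are medians. All cells nearest C, among them the Cdk2-HET cell at 21347 CPM of stromal markers, and the Cdk2-HET cells nearest D are left out. Cdk2-HET cells nearest A have a median of 999 CPM of G2 and M phase genes and those nearest B 3177, and stromal markers reach 10521 CPM in a Cdk2-HET cell nearest A.

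Across all genes the heterozygote was closer to the wild type. Among 8473 genes with at least 50 UMIs, Cdk2-HET germ cells were at least 2-fold above Cdk2-WT in 130 (1.53%) and at least 2-fold below in 88 (1.04%), with a median log2 ratio of 0.05 over all of them and 55.2% above Cdk2-WT by any amount. Against Cdk2-Y15S they were at least 2-fold above in 681 (8.04%) and below in 232 (2.74%), with a median of 0.10 and 57.6% above by any amount. In all other cells of the libraries, 2 of the 130 and 7 of the 88 genes also differed 2-fold in the same direction. The 2 comparisons share the Cdk2-HET cells, so their counts are given side by side only.

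Genes chosen for their difference between the other libraries also put the heterozygote nearer the wild type. Between Cdk2-WT and Cdk2-Y15S germ cells, 703 genes differed at least 2-fold with Poisson intervals that do not overlap. Of all 8473 genes, Cdk2-Y15S was at least 2-fold lower in 6.77% and higher in 2.74%, and above Cdk2-WT by any amount in 46.2%. Cdk2-HET was nearer Cdk2-WT on the log2 scale in 602 of them (85.6%) and lay between the others in 452. Of the 502 genes lower in Cdk2-Y15S, Cdk2-HET was nearer Cdk2-WT in 468 (93.2%), with a median position 8.34% of the way from Cdk2-WT to Cdk2-Y15S. Of the 201 genes higher in Cdk2-Y15S it was nearer Cdk2-WT in 134 (66.7%), at a median of 34.1% of the way. The minimum of 50 UMIs counts those of Cdk2-HET too. With a minimum over the other libraries alone, added after seeing the data, Cdk2-HET was nearer Cdk2-WT in 512 of 601 genes (85.2%): 385 of 415 lower and 127 of 186 higher in Cdk2-Y15S. Among the 36 higher genes that are at least 3-fold enriched in germ cells, it was nearer Cdk2-WT in 32, at a median of 0.26% of the way. Of the 703 genes, 49 also differed 2-fold between Cdk2-WT and Cdk2-Y15S in all other cells, and Cdk2-HET was nearer Cdk2-WT in 41 of these.

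Stra8, a gene of entry into differentiation that is high in Cdk2-Y15S germ cells, was low in the heterozygote, but not all such genes were. Kit and Sohlh1, genes of differentiating spermatogonia, were also higher in Cdk2-Y15S than in Cdk2-WT. For both, Cdk2-HET did not differ from Cdk2-Y15S beyond counting error (log2 -0.41 for Kit and -0.16 for Sohlh1). Stra8 (chr6:34920163-34939344), which responds to retinoic acid and starts the programme of differentiation and meiosis, was at 26.9 CPM in Cdk2-WT germ cells, 40.8 in Cdk2-HET and 206 in Cdk2-Y15S. The log2 ratio of Cdk2-HET was 0.60 over Cdk2-WT (-0.09 to 1.28) and -2.32 over Cdk2-Y15S (-2.88 to -1.84). Stra8 was seen in 14 of 69 Cdk2-HET cells (20.3%, 11.6 to 31.7), 22 of 126 Cdk2-WT cells (17.5%) and 63 of 116 Cdk2-Y15S cells (54.3%). With every cell thinned to 2000 UMIs the shares were 10.1%, 7.26% and 29.3%. In 2500 Cdk2-HET cells with Sertoli markers, which should lack Stra8, 1 had a UMI (0.04%; median 6350 UMIs per cell).

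The Cdk2-HET Stra8 signal was uneven. Of its 36 UMIs, 11 came from 1 cell (30.6%), and 25 lay in 7 cells nearest A, against 7 UMIs in the cells nearest B. Of the 14 cells with Stra8, 5 also had Kit, 11 Bcl6b and 3 Mki67. They were somewhat deeper (median 14666 UMIs) than those without it (11886).

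Of the 10 germ-enriched genes highest in Cdk2-Y15S over Cdk2-WT, 5 (Stra8, Lmo1, Acp5, Igfbp2 and Eif3j2) had Cdk2-HET between the others and 5 (Kif26a, Sag, Bcl11a, Lonrf3 and Gm9112) had it below Cdk2-WT. Only Igfbp2 had an interval above 0 against Cdk2-WT (7.41% of all genes) and only Gm9112 one below (4.40%). For the rest, the side of Cdk2-WT on which Cdk2-HET lay is within counting error. Lmo1, a LIM-domain cofactor of transcription, was at 32.7 CPM in Cdk2-WT, 43.0 in Cdk2-HET and 181 in Cdk2-Y15S. Acp5, an acid phosphatase, was at 19.2, 29.4 and 79.9 CPM. Igfbp2, which binds insulin-like growth factors, was at 39.1, 62.3 and 126, and its Cdk2-HET level differed from both others beyond counting error (log2 0.67 over Cdk2-WT, 0.12 to 1.22; -1.01 over Cdk2-Y15S, -1.48 to -0.59). Kit, the receptor gained by differentiating spermatogonia, was at 32.7, 43.0 and 57.5 CPM, and Cdk2-HET differed from neither beyond counting error.

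Over the 14 genes of the differentiating spermatogonia list, the median log2 ratio of Cdk2-HET was -0.18 over Cdk2-WT and -0.37 over Cdk2-Y15S. Against Cdk2-WT 2 members had an interval above 0 (7.41% of all genes) and 2 below (4.40% of all genes). Those above were Sohlh1, a transcription factor of differentiating spermatogonia (166 CPM against 123), and Rhox13, an X-linked homeobox gene (64.5 against 34.6, and 41.4 in Cdk2-Y15S). Those below were Dmrt1, which holds off meiosis (191 CPM against 239), and Ccnd2, a cyclin of G1 (615 against 729). Against Cdk2-Y15S 2 members had an interval above 0 (18.9% of all genes) and 6 below (11.2%), among them the ubiquitin hydrolase gene Uchl1 (271 CPM against 574) and the DNA methyltransferase gene Dnmt3b (39.6 against 102).

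**Figure D3:**
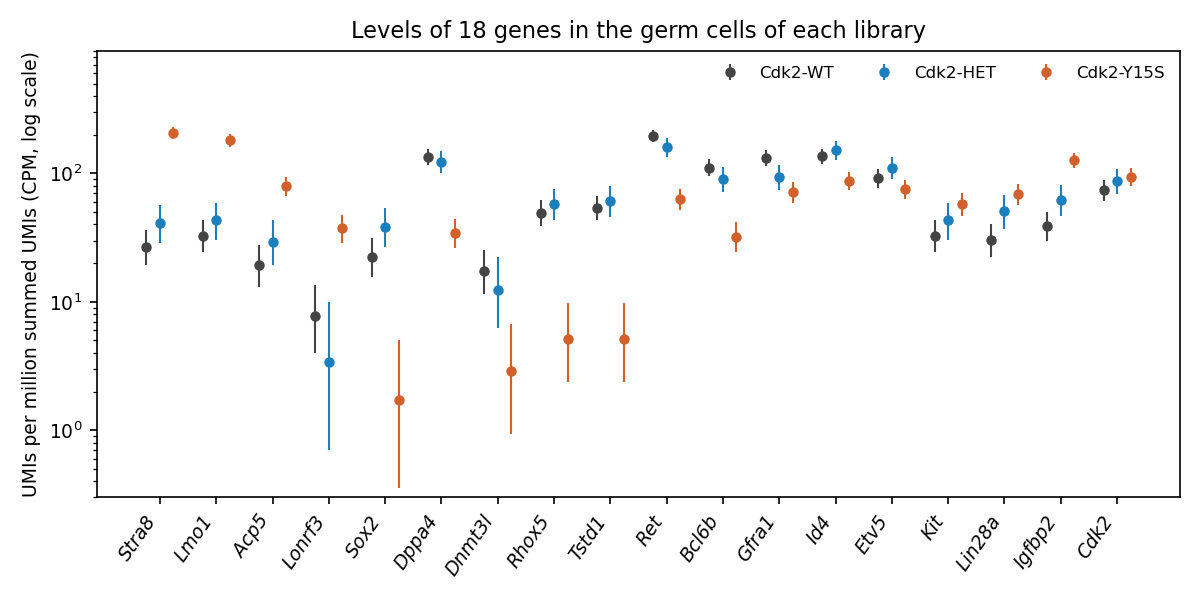
Level of 18 genes in the germ cells of each library, in CPM on a log scale, with exact Poisson intervals. Cdk2-HET lies with Cdk2-WT for Stra8, Lmo1, Dppa4, Rhox5, Tstd1, Ret and Bcl6b, between both others for Igfbp2 and above both for Sox2, whose ratio over Cdk2-WT turned to -0.42 in cells with at most 10% mitochondrial UMIs.

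Genes of early germ cells were near their wild-type levels in the heterozygote. Sox2 (chr3:34650405-34652461), a pluripotency factor, was at 22.4 CPM in Cdk2-WT, 38.5 in Cdk2-HET and 1.72 in Cdk2-Y15S (35, 34 and 3 UMIs). Dppa4 was at 135, 123 and 34.5 CPM, Utf1 at 52.6, 69.1 and 19.5, and Tcl1 at 172, 165 and 57.5. Pou5f1, which encodes OCT4, was at 91.0, 97.4 and 98.9 CPM and did not separate the libraries. Sox2 was seen in 21 of 69 Cdk2-HET cells (30.4%), 22 of 126 Cdk2-WT cells (17.5%) and 2 of 116 Cdk2-Y15S cells (1.72%), but at 2000 UMIs per cell in 1 of 69, 5 of 124 and 1 of 116. The Sox2 excess of Cdk2-HET over Cdk2-WT (log2 0.78, with an interval that starts at 0.05) turned to -0.42 in cells with at most 10% mitochondrial UMIs.

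For the list of pluripotency and primordial germ cell genes, 11 of 16 members were measured. Its median log2 ratio of Cdk2-HET was 0.30 over Cdk2-WT and 1.61 over Cdk2-Y15S. Against Cdk2-WT 2 of the 11 members had an interval above 0 (Sox2 and Dppa5a; 7.41% of all genes), and against Cdk2-Y15S 7 were at least 2-fold higher (8.04% of all genes). The first median turned to -0.29 with at most 10% mitochondrial UMIs. Other genes with Cdk2-HET near Cdk2-WT and Cdk2-Y15S far lower were Rhox5 (57.7 CPM against 49.4; 5.17 in Cdk2-Y15S), Tstd1 (61.1 against 53.8; 5.17), Ctnnd2 (24.9 against 23.1; 1.72) and Hmga2, a chromatin protein of embryonic cells (23.8 against 17.3; 1.72).

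Stem cell genes were near the wild type, with some shortfall. Over the 17 measured genes of the undifferentiated spermatogonia list the median log2 ratio of Cdk2-HET was -0.24 over Cdk2-WT and 0.56 over Cdk2-Y15S. Against Cdk2-WT 2 members had an interval above 0 (Lin28a and T; 7.41% of all genes) and 3 below (Gfra1, Sall4 and Egr4; 4.40%). Ret, a receptor of the growth factor GDNF, was at 196 CPM in Cdk2-WT, 160 in Cdk2-HET and 63.2 in Cdk2-Y15S. Gfra1, its co-receptor, was at 131, 94.0 and 71.3, with a log2 ratio of -0.48 over Cdk2-WT (-0.87 to -0.11). Sall4, a zinc-finger factor of germ cells, was at 247, 172 and 128 CPM (-0.52 over Cdk2-WT, -0.80 to -0.25).

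Targets of GDNF signalling and other stem cell factors followed no single order. Bcl6b was at 111 CPM in Cdk2-WT, 90.6 in Cdk2-HET and 32.2 in Cdk2-Y15S, Etv5 at 91.7, 111 and 75.3, and Id4, an inhibitor of DNA binding, at 136, 152 and 87.9. None of these 3 differed from Cdk2-WT beyond counting error, and each lay above Cdk2-Y15S. Lin28a was at 30.1, 50.9 and 69.0 CPM (log2 0.76 over Cdk2-WT, 0.14 to 1.38), and brachyury (gene T) had 15, 19 and 3 UMIs. Gfra1 was seen in 35 of 69 Cdk2-HET cells and Ret in 40, with both in 29. Unthinned, Gfra1 was seen in 82 of 126 Cdk2-WT and 55 of 116 Cdk2-Y15S cells, so the Cdk2-HET share was below that of Cdk2-WT. At 2000 UMIs per cell Gfra1 was seen in 20.3% of Cdk2-HET, 17.7% of Cdk2-WT and 6.90% of Cdk2-Y15S cells. The lower share was thus not seen at that depth. Of the 2500 Cdk2-HET cells with Sertoli markers, 1 had Gfra1.

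The piRNA pathway and de novo methylation genes were measured for 18 of 19 listed (Dnmt3c is not among the gene names of the matrix). Their median log2 ratio of Cdk2-HET was -0.10 over Cdk2-WT and 0.55 over Cdk2-Y15S. No member was 2-fold above or below Cdk2-WT, which few genes are (1.53% and 1.04%), and 6 were at least 2-fold above Cdk2-Y15S (8.04% of all genes). Dnmt3l, the cofactor of de novo methylation in gonocytes, was at 17.3 CPM in Cdk2-WT, 12.5 in Cdk2-HET and 2.87 in Cdk2-Y15S (27, 11 and 5 UMIs). Spocd1 had 23, 11 and 2 UMIs. Gtsf1, a cofactor of PIWI proteins, was at 274, 322 and 157 CPM, and Morc1, a silencing factor, at 66.7, 56.6 and 21.8.

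**Figure D4:**
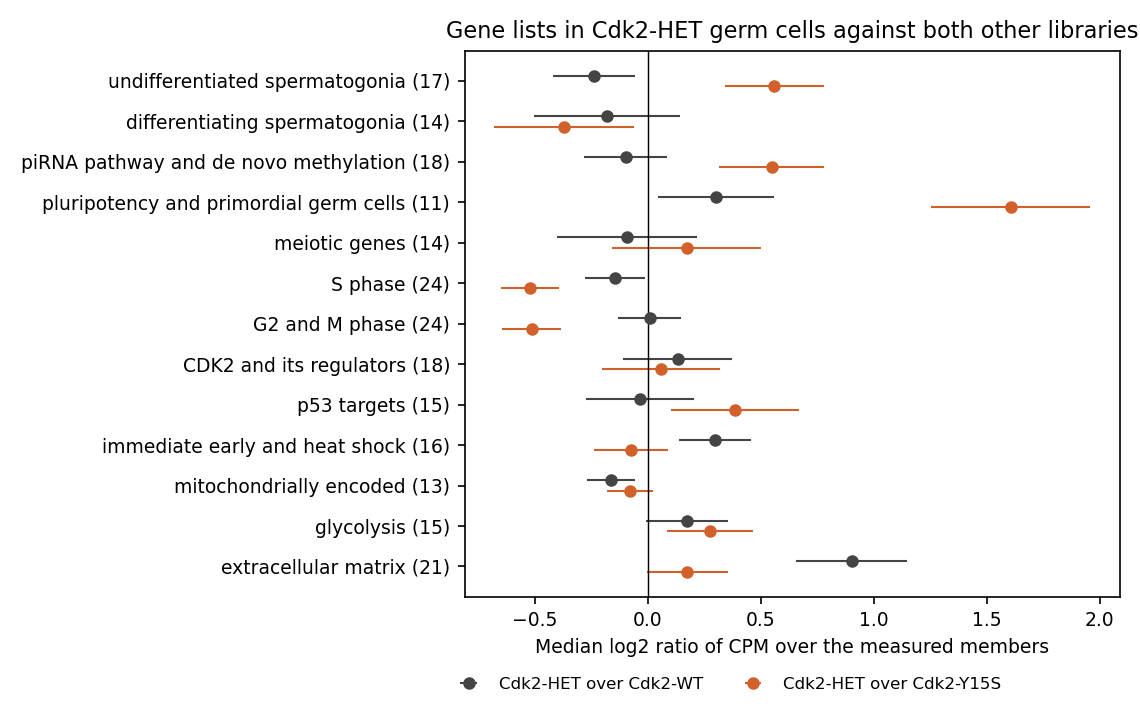
Median log2 ratio of Cdk2-HET over Cdk2-WT (grey) and over Cdk2-Y15S (orange) for 13 gene lists, with the number of measured members; bars show counting error of the median. The median over Cdk2-WT is nearer 0 than that over Cdk2-Y15S for undifferentiated, piRNA, pluripotency, S phase and G2 and M phase genes, and is far from 0 for extracellular matrix genes.

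Summed over all its germ cells, the G2 and M phase genes of the heterozygote were at the level of the wild type. The 24 genes of the G2 and M phase list summed to 2192 CPM in Cdk2-WT germ cells, 2268 in Cdk2-HET and 3313 in Cdk2-Y15S. Their median log2 ratio was 0.01 over Cdk2-WT and -0.51 over Cdk2-Y15S, where 23 of 24 were below 0 and 12 had an interval below 0 (11.2% of all genes). Ccnb1, the cyclin of mitotic entry, was at 84.6, 86.0 and 173 CPM, and Cenpf, a centromere protein, at 233, 234 and 393. Ube2c, which helps degrade cyclins, differed from both others, at 149, 204 and 299 CPM.

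The same list gave fewer positive cells than in Cdk2-Y15S. With every cell thinned to 2000 UMIs, 45 of 69 Cdk2-HET cells had at least 3 UMIs of it (65.2%, 52.8 to 76.3), against 65 of 124 in Cdk2-WT (52.4%, 43.3 to 61.5) and 103 of 116 in Cdk2-Y15S (88.8%, 81.6 to 93.9). Unthinned, the shares were 95.7%, 92.1% and 97.4%. These genes are also high in Cdk2-HET cells with Sertoli markers (2514 CPM), so free RNA can add to them, and its part was not tested.

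Genes of S phase, the time of DNA replication, had a median log2 ratio of -0.14 over Cdk2-WT and -0.52 over Cdk2-Y15S, with 15 of 24 members below Cdk2-Y15S beyond counting error (11.2% of all genes). Mcm5, a subunit of the replicative helicase, was lowest in the heterozygote, at 116 CPM in Cdk2-WT, 72.5 in Cdk2-HET and 125 in Cdk2-Y15S. Hells, a chromatin remodeller, was likewise at 340, 281 and 454. Other helicase subunits did not follow Mcm5: Mcm6 was at 110, 136 and 177 CPM and Mcm3 at 108, 120 and 149. Pcna, the sliding clamp, went the other way at 43.0, 57.7 and 17.2. Its low level in Cdk2-Y15S was not particular to germ cells, as all other cells were at 27.7, 23.6 and 9.18 CPM.

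By their median, the regulators of CDK2 itself differed little from the wild type. Over 18 measured genes the median log2 ratio of Cdk2-HET was 0.13 over Cdk2-WT and 0.06 over Cdk2-Y15S. Wee1, which encodes the kinase of tyrosine 15, was scarce, with 34 UMIs in Cdk2-WT, 12 in Cdk2-HET and 41 in Cdk2-Y15S. The related kinase gene Pkmyt1 had 18, 15 and 13. The inhibitor gene Cdkn1a was at 94.2, 91.7 and 33.9 CPM and Cdkn1c at 80.8, 99.6 and 29.3, so Cdk2-HET lay with Cdk2-WT for both. Cks1b, a small partner of the kinase, was at 212, 232 and 436. Ccnh and Mnat1, partners of CDK7 in the kinase that activates CDKs, had intervals above 0 against Cdk2-WT, as 7.41% of all genes did (127 CPM against 92.3, and 46.4 against 28.8).

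Targets of p53, a list that holds Cdkn1a too, had median log2 ratios of -0.04 over Cdk2-WT and 0.39 over Cdk2-Y15S. Pmaip1, which encodes the death factor NOXA, was at 174 CPM in Cdk2-WT, 182 in Cdk2-HET and 44.3 in Cdk2-Y15S. Mdm2, the brake on p53, was at 146, 178 and 83.9. Bax, a pore-forming death factor, ran the other way at 269, 317 and 389. Against Cdk2-WT 1 member had an interval above 0 (7.41% of all genes) and 1 below (4.40%). The latter was Aen, at 125, 87.2 and 86.2 CPM (log2 -0.51 over Cdk2-WT, -0.92 to -0.13), where Cdk2-HET lay with Cdk2-Y15S.

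Some genes put the heterozygote outside the range of both others. Among germ-enriched genes, those lowest against both included Pramef12, a PRAME family gene at chr4:144391674-144408464, with 36 UMIs in Cdk2-WT, 7 in Cdk2-HET and 99 in Cdk2-Y15S (23.1, 7.93 and 56.9 CPM). Its log2 ratio was -1.46 over Cdk2-WT (-2.95 to -0.35) and -2.75 over Cdk2-Y15S (-4.20 to -1.75). It was seen in 7 of 69 Cdk2-HET cells (10.1%), 30 of 126 Cdk2-WT cells (23.8%) and 58 of 116 Cdk2-Y15S cells, but at 2000 UMIs per cell in 2 of 69, 2 of 124 and 16 of 116. Gm9112 had 21, 3 and 147 UMIs, Acaa1b 24, 3 and 53, and Gm10324 16, 2 and 36, and all 3 had intervals below 0 against both. Of all genes, 4.40% had an interval below 0 against Cdk2-WT and 11.2% against Cdk2-Y15S. These genes and Pramef12 were picked from the same counts as the lowest against both, so their intervals are descriptions only. Lonrf3, Bcl11a, Kif26a and Gyltl1b were low too, but their intervals against Cdk2-WT include 0.

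Meiotic genes were mostly level with the wild type. The median log2 ratio over 14 measured genes was -0.09 over Cdk2-WT and 0.17 over Cdk2-Y15S. Syce1, of the central element of the synaptonemal complex, was the 1 member with an interval below 0 against Cdk2-WT (4.40% of all genes), at 64.1 CPM in Cdk2-WT, 36.2 in Cdk2-HET and 74.7 in Cdk2-Y15S. Sycp3, of its lateral element, was at 112, 105 and 90.8 CPM, and Syce2 at 329, 348 and 422. Dmrtb1, which times the entry into meiosis, had 10 UMIs in Cdk2-WT, 1 in Cdk2-HET and 35 in Cdk2-Y15S.

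Stromal marker RNA was higher in Cdk2-HET germ cells than in those of the wild type. The 10 stromal markers summed to 212 CPM in Cdk2-WT germ cells (189 to 236), 723 in Cdk2-HET (668 to 782) and 631 in Cdk2-Y15S (594 to 669). In all other cells of these libraries they were at 2665, 3973 and 4985 CPM. All 10 were detected in Cdk2-HET germ cells and 8 were at least 2-fold above Cdk2-WT (1.53% of all genes), with a median log2 ratio of 1.67 over Cdk2-WT and 0.15 over Cdk2-Y15S. The median cell moved less, from 133 CPM in Cdk2-WT to 228 in Cdk2-HET and 258 in Cdk2-Y15S.

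A few Cdk2-HET cells carried much of the stromal RNA. Over 2000 CPM of stromal markers were seen in 4 of 69 Cdk2-HET, 1 of 126 Cdk2-WT and 6 of 116 Cdk2-Y15S cells. The Cdk2-HET cell with the highest level, the one nearest cluster C, was at 21347 CPM, and another, deeper cell held the largest number, 21.3% of the stromal UMIs of the 69. Lum, a matrix proteoglycan gene, had 1 UMI in Cdk2-WT, 29 in Cdk2-HET and 10 in Cdk2-Y15S, and 18 of the 29 (62.1%) came from a single cell. Dcn, another proteoglycan gene, was at 26.9, 125 and 113 CPM.

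Extracellular matrix genes moved with the stromal markers, with which they share members. Over 21 measured genes the median log2 ratio of Cdk2-HET was 0.90 over Cdk2-WT and 0.18 over Cdk2-Y15S, and 14 had an interval above 0 against Cdk2-WT (7.41% of all genes). Collagen genes Col1a2 and Col3a1 were at 49.4 and 32.1 CPM in Cdk2-WT, 172 and 143 in Cdk2-HET and 164 and 129 in Cdk2-Y15S. When cells with over 2000 CPM of Sertoli or stromal markers were left out (which left 61 Cdk2-HET cells, 117 of Cdk2-WT and 107 of Cdk2-Y15S), an exclusion chosen after seeing the data, the matrix median over Cdk2-WT was 0.08 and the stromal median 0.73. With at most 10% mitochondrial UMIs they were 1.40 and 2.57. In the other cells of the libraries the same genes had medians of 0.34 and 0.57, and the part of free or captured somatic RNA in the matrix difference was not tested.

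Sertoli markers summed to 581 CPM in Cdk2-WT germ cells, 783 in Cdk2-HET and 501 in Cdk2-Y15S, against 5969, 5524 and 4658 in all other cells. Amh, the Sertoli hormone, had 56, 53 and 30 UMIs, and 16 of the 53 came from 1 Cdk2-HET cell. The Sertoli excess over Cdk2-WT (median log2 0.35) was 0.0590 with each cell weighted equally.

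Lists for other somatic types gave a mixed picture. Myoid markers were at 84.9 CPM in Cdk2-HET and 80.1 in Cdk2-WT germ cells, and fetal Leydig markers at 19.2 and 15.4, with ratios whose intervals include 0. These were 7.59% and 4.69% of the level in the other Cdk2-HET cells. Erythroid markers (19 and 39 UMIs) and pericyte markers (2 and 6 UMIs) did not differ beyond counting error either. Endothelial markers were higher, at 170 CPM in Cdk2-HET and 129 in Cdk2-WT germ cells (log2 0.40, 0.08 to 0.71), and stood above the 98.5 CPM of the other Cdk2-HET cells, with Egfl7 at 96.2 against 20.2 CPM. Macrophage markers were at 105 CPM in Cdk2-HET and 103 in Cdk2-WT germ cells, nearly all of it Fcer1g (103 CPM), while Adgre1, Csf1r and C1qb had no UMI in Cdk2-HET. Of the lymphocyte list 7 UMIs were seen, 5 of them of Cd79a.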

How the data were processed

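Per the labels' protocols, testes were digested with trypsin, EDTA and DNase I and read with 10x Genomics 3-prime version 2 chemistry. Build mm10 and the tools Cell Ranger 2.1.0 and Seurat are listed per the submitters' processing notes. Not given in the sources used here: how each tool was used, how cells were called and which annotation was counted. UMI counts of 27998 genes make up the deposited matrix, with the library of each cell marked in its barcode. The deposited germ table also holds counts, for 10451 genes in 141 Cdk2-WT and Cdk2-Y15S cells, and the authors' deposited mapping names a cluster for each.

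The UMIs of the cells of the rule were summed per library and scaled to 1000000 (CPM over all genes). With 1 library per genotype no test was run. A log2 ratio has 0.5 UMI added to each sum, genes were counted with at least 50 UMIs over the 3 libraries and list members with at least 20, and a list is described by its median and counts beside those of all genes. The interval of a ratio is that of the summed counts, with no UMI added. The counting error drawn for a list median treats members as independent. The genes considered for naming were Cdk2, the rule genes and 10 genes of stem and differentiating cells and of division. Added to them were, in each list, the 2 members with the highest and the 2 with the lowest ratio over Cdk2-WT. Also added were the germ-enriched genes with the 10 highest and lowest ratios of Cdk2-Y15S over Cdk2-WT. The last were the germ-enriched genes with the 8 highest and lowest ratios of Cdk2-HET over both. Not all of these genes are named in the text, so the extremes of a list are not always shown. Other list members were named after their values were seen. The members and the 23 lists were chosen with earlier results of these data known. Gene positions are from GENCODE M21 on GRCm38, where 27645 of 27998 identifiers were found. Doublets were called with Scrublet in scanpy 1.11.5 at an expected rate of 6%. The steps ran in Python 3.11.15 with numpy 2.4.6, scipy 1.17.1 and pandas 2.3.3, and were tested on simulated data. Alternatives covered the cell rule, doublets, the totals, the weight of each cell, the UMI minimum, the added UMI, ambient RNA, the placement and the thinning.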

Additional observations from a re-analysis of the deposited data

How the results depend on the processing

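No paired analysis was possible because each genotype is 1 library, so no library could be left out either. All ratios rest on 883235 Cdk2-HET UMIs, which sets the floor of 3 UMIs at 3.40 CPM.

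A limit of 10% mitochondrial UMIs (which left 39 Cdk2-HET cells, 58 of Cdk2-WT and 64 of Cdk2-Y15S) moved the most values. Germ cell shares became 0.807% in Cdk2-HET, 1.20% in Cdk2-WT and 1.51% in Cdk2-Y15S. Against Cdk2-WT the pluripotency median turned to -0.29, the S phase median to 0.0747 and Sox2 to -0.42, and the matrix median was 1.40. Against Cdk2-Y15S the medians were -1.10 for differentiating, -0.23 for meiotic, -0.95 for G2 and M phase, 0.57 for immediate early, -0.45 for mitochondrial, 0.58 for glycolysis and 0.76 for matrix genes. Cdk2-HET was then nearer Cdk2-WT in 73.2% of the genes higher in Cdk2-Y15S, and 30.8% of its cells were nearest B. The cause of these changes was not tested.

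With all 3 markers required, the Cdk2-WT share was 2.02% and the matrix median 0.63. With doublets left out, the matrix median over Cdk2-Y15S was 0.40. An exclusion of cells rich in Sertoli or stromal markers, chosen after seeing the data, gave medians over Cdk2-WT of 0.13 for immediate early and 0.0839 for matrix genes, 0.0656 for glycolysis over Cdk2-Y15S, -0.0713 for Dpt over Cdk2-Y15S and 76.3% of the genes higher in Cdk2-Y15S nearer Cdk2-WT. Cells within the gene number and mitochondrial range of the deposited germ cells, also chosen after seeing the data (45 Cdk2-HET cells), gave shares of 0.909% in Cdk2-HET, 1.46% in Cdk2-WT and 1.77% in Cdk2-Y15S, an immediate early median of 0.0461 and a Fosb ratio of -0.0349 over Cdk2-WT.

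With each cell weighted equally, 200 genes were 2-fold higher and 160 lower than in Cdk2-WT, the immediate early median over Cdk2-Y15S was 0.26, and 90.2% of the genes lower in Cdk2-Y15S were nearer Cdk2-WT. Taking away 10% ambient RNA gave 314 genes higher than in Cdk2-WT, medians over Cdk2-WT of 0.64 for immediate early and 1.77 for matrix genes, and over Cdk2-Y15S of 0.12, 0.53 and 0.73 for immediate early, glycolysis and matrix genes. Cell marker lists were set apart as identity checks only after their changes had been seen: over Cdk2-WT the stromal median was 0.73 without marker-rich cells, 1.13 within the deposited range, 2.57 under the mitochondrial limit and 6.08 with ambient RNA removed, and the Sertoli median was 0.0590 with cells weighted equally, 0.70 with all 3 markers, 0.91 within the deposited range and 1.70 with ambient RNA removed. Genes 2-fold higher and lower numbered 31 and 24 against Cdk2-WT and 324 and 119 against Cdk2-Y15S with at least 100 UMIs, and 2180, 1213, 3762 and 1112 with no minimum, where fewer UMIs widen every ratio. With at least 50 UMIs per member, the pluripotency median over Cdk2-Y15S was 0.97. Placement on all genes of the germ table put 10.1% of Cdk2-HET cells in D or E. The shares with 3 G2 and M phase or S phase UMIs were 84.7% and 93.2% at 5000 UMIs per cell and 95.7% and 98.6% unthinned, since deeper cells show more UMIs.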

Other observations

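Immediate early and heat shock genes, which respond within minutes to stimulation or handling, were on balance above Cdk2-WT in Cdk2-HET germ cells. Of 16 measured, 13 had a ratio above 0 (55.2% of all genes do), 7 had an interval above 0 (7.41%) and none an interval below, with a median log2 ratio of 0.30 over Cdk2-WT and -0.07 over Cdk2-Y15S. The first median was 0.13 without the cells rich in Sertoli or stromal markers and 0.0461 in the cells within the range of the deposited germ cells. Junb was at 90.4 CPM in Cdk2-WT, 149 in Cdk2-HET and 105 in Cdk2-Y15S, Jun at 40.4, 66.8 and 48.3, and Fos at 151, 197 and 153. Egr1 was at 256, 316 and 186. All 4 encode transcription factors, and the first 3 form the AP-1 complex. The list is far higher in all other Cdk2-HET cells (11696 CPM against 4572 in germ cells), and the part of their RNA in the difference was not tested.

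Genes of energy supply moved little in size. The 13 mitochondrially encoded genes had a median of -0.16 over Cdk2-WT, with 12 below 0 and 10 with an interval below 0 (4.40% of all genes), and -0.12 in all other cells of the 2 libraries. Of 15 measured glycolysis genes 2 had an interval above 0 against Cdk2-WT (7.41% of all genes): the glucose transporter gene Slc2a3 was at 30.8 CPM in Cdk2-WT, 50.9 in Cdk2-HET and 16.7 in Cdk2-Y15S, and Aldoa at 306, 389 and 271. Ldha, the last step of fermentation to lactate, was at 114, 123 and 49.4. Genes often used as markers of blood and vessel cells were also found in germ cells. Fcer1g, listed for macrophages, was at 103 CPM in Cdk2-WT, 103 in Cdk2-HET and 35.6 in Cdk2-Y15S germ cells, against 24.7 in all other Cdk2-HET cells, while Csf1r and Adgre1 had no UMI in Cdk2-HET germ cells. Pecam1, listed for endothelium, was at 21.2, 35.1 and 11.5 CPM, against 12.0 in all other Cdk2-HET cells.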
